A study of Arabidopsis thaliana with 6 samples.

Results

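The transcripts described here are 37 probe sets of 22746 (64 control probe sets set aside) whose signal was higher in root tips after 1 h of red light than after 1 h of further darkness on every comparable pair of arrays. They were chosen from the signals themselves. Red light 1 had to reach at least 1.5 times both dark 1 and dark 3, red light 2 and red light 3 each at least 1.5 times dark 2, and all 3 red light signals at least 150. In all, 47 probe sets met these criteria. Of these, 2 chloroplast-encoded transcripts and 8 probe sets given by ID were set aside, among them those of the clock gene GI and of the flavonoid glucosyltransferase gene UGT78D2. The word raised is used below for these 37 only in the sense of these criteria. Their red light changes are therefore a description and were not tested as a finding.

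The study used Arabidopsis thaliana seedlings grown for 7 days in the dark at 23 °C on medium with 1% sucrose. No ecotype, mutant, transgene or other agent is named in the labels for either group. Red light (peak 630 nm, 12 to 14 µmol per square metre and second) was given to 3 samples, and 3 samples went on in darkness. Each sample was a pool of 1 cm root tips from several plates, called a biological replicate by the labels, and was hybridised to 1 single-colour Affymetrix array. Values are MAS5 signals on a linear scale, and changes are log2 differences, red light minus dark.

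Plants sense red light mainly through phytochromes, which switch to an active form in red light, move into the nucleus and remove a group of transcription factors that hold back light responses. Seedling roots express phytochromes although they normally grow in soil, and root growth, pigment and flavonoid formation respond to light. Transcripts that change within the first hour typically include transcription factors, clock components and enzymes of pigment metabolism.

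The arrays fell into classes that cross the treatment, seen in the GAPDH control as its 3' over 5' signal, a measure of how far the labelled target extends towards the 5' end. Dark 1, dark 3 and red light 1 had ratios of 20.2 to 26.2 (the high-ratio class), and dark 2, red light 2 and red light 3 had ratios of 0.981 to 1.45 (the low-ratio class). The actin control split the arrays the same way but at higher ratios, 71.7 to 138.2 in the high-ratio class and 13.8 to 20.9 in the low-ratio class. Ratios near 1 in the low-ratio class thus held for GAPDH and not for actin. The criteria above compare arrays only within a class. In bulk tissue a change in the number of cells of a type and a change in RNA per cell cannot be told apart. As a check of the tissue, 3 of the 6 root hair markers had a named probe set. Their summed signal went from 1408.3 (dark 1) and 1377.3 (dark 3) to 474.3 (red light 1), and from 3471.8 (dark 2) to 3172.3 (red light 2) and 2871.1 (red light 3). The sum was thus lower in red light within both classes, but the single markers did not all follow it. Among the high-ratio arrays, with 1 red light array, the log2 changes were -3.19 for EXPA7, -1.84 for EXPA18 and -1.15 for XTH26. Among the low-ratio arrays they were 0.11 for EXPA7, -0.16 for EXPA18 and -0.47 for XTH26. The 7 named photosynthesis probe sets of 26 listed genes, markers of green shoot tissue, went as a sum from 1480.1 (dark 1) and 2553.9 (dark 3) to 2803.6 (red light 1), and from 1455.8 (dark 2) to 1605.2 (red light 2) and 929.6 (red light 3). No marker value was 0. Their part in the results below was not tested.

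Of the 37 probe sets, 12 are assigned to exactly 1 gene by the platform annotation and 25 are not listed there. The latter are given by probe set ID. Over the whole array 59.4% of probe sets have exactly 1 gene, against 32.4% of the raised ones. Every one of the 37 has a name ending in plain _at, with no mark for cross-hybridisation, as have 95.3% of all probe sets. The 12 genes are dispersed: the closest pair, AT3G16350 and AT3G16800, has 60 genes between them in the RefSeq order (TAIR10.1).

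The mean change, taken as the average of the changes within the 2 classes, ran from 0.71 to 3.27 over the 37 probe sets with a median of 1.12, beside a median of -0.030 over the 13647 probe sets bright enough to be tested. It was at least 2 for 5 probe sets, from 1 to 2 for 23 and under 1 for 9. Signals in the dark ran from 10.3 to 3228.7 and in red light from 164.8 to 7384.5. The plot of signals by array shows all 37.

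**Figure D1:**
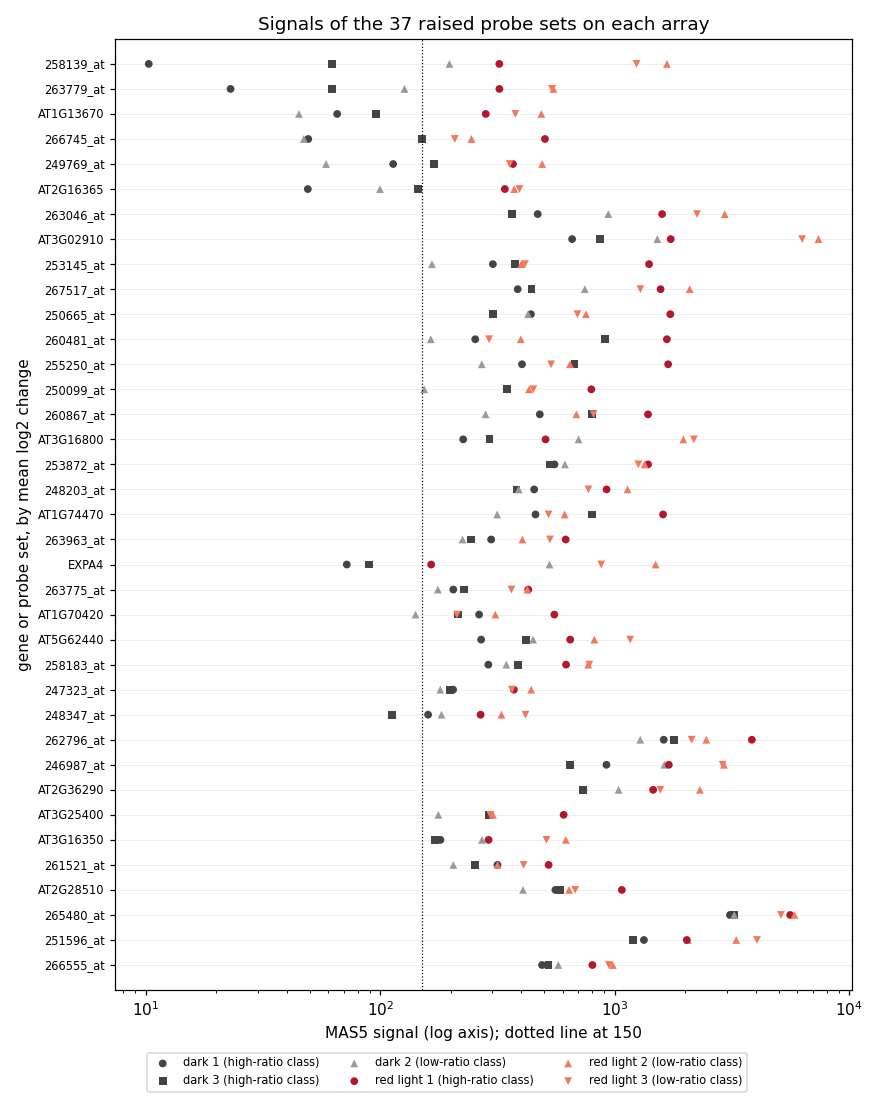
MAS5 signal (log axis) of each of the 37 raised probe sets on the 6 arrays, with 1 point per array, ordered by mean log2 change from the top. Red points lie to the right of the black or grey points of their own class in every line by construction, and the 6 probe sets at the top start from dark signals of 10.3 to 197.2.

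Among the regulators, AT2G16365 is known as PCH1, a protein that binds active phytochrome B and slows its return to the inactive form. Its signal was 49.1, 99.7 and 145.2 in dark 1, 2 and 3, and 339.7, 372.6 and 392.0 in red light 1, 2 and 3. The 3 red light arrays lay close together while the dark arrays spread over 2.96-fold between dark 1 and dark 3, and the lowest red light signal was 2.34 times the highest dark signal. The mean change was 1.97 (SE 0.41, n = 3 arrays per group), with 2.01 among the high-ratio arrays and 1.94 among the low-ratio arrays.

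AT3G16800 encodes a protein phosphatase of the PP2C family, enzymes that remove phosphate from serine and threonine residues. Its signal was 225.7, 700.6 and 292.3 in darkness and 506.6, 1960.2 and 2173.0 under red light. Red light was higher within each class, but red light 1 lay below dark 2, so the groups as wholes overlapped. The mean change was 1.27 (SE 0.23), with 0.98 among the high-ratio arrays and 1.56 among the low-ratio arrays.

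AT3G16350 encodes a MYB-related transcription factor. Its signal was 180.5, 271.5 and 170.5 in darkness and 289.6, 618.4 and 511.4 under red light. The groups did not overlap, but red light 1 exceeded dark 2 by only 1.07-fold. AT2G28510, a gene of the plant-specific Dof zinc finger family of transcription factors, had signals of 557.9, 406.0 and 583.3 in the dark and 637.9 in red light 2, 677.7 in red light 3 and 1071.4 in red light 1. Both transcription factor genes had small changes for this set, 0.89 (SE 0.25) for AT3G16350 and 0.80 (SE 0.21) for AT2G28510.

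Among the enzymes, AT1G74470 encodes geranylgeranyl reductase, which makes the phytyl chain of chlorophyll and tocopherol. Its signal was 459.1, 315.1 and 798.9 in darkness and 1605.8, 611.0 and 521.7 under red light. Red light 1 stood far above the other arrays, and dark 3 lay above both red light 2 and red light 3, so the groups overlapped. The change was 1.41 among the high-ratio arrays and 0.84 among the low-ratio arrays, with a mean of 1.12 (SE 0.27).

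The chlorophyll and haem list, 11 genes, had 3 with a tested named probe set, of which limma called 0, and 0 had an unadjusted p under 0.05. Withamong the high-ratio arrays their changes were 1.28 for PORB, an enzyme of light-dependent chlorophyll synthesis, 0.52 for CHLM, a methyltransferase of the same pathway, and 0.15 for GSA1, an early enzyme. Withamong the low-ratio arrays the changes were -0.98 for PORB, 0.12 for CHLM and -0.77 for GSA1. The 6 tested photosynthesis genes likewise had changes of -0.26 to 1.05 among the high-ratio arrays and of -0.50 to 0.29 among the low-ratio arrays. The part of these values in the change of AT1G74470 was not tested.

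AT3G02910 belongs to a family of gamma-glutamylcyclotransferase-like proteins. Its signal was 657.6, 1518.4 and 865.6 in darkness and 1731.0, 7384.5 and 6292.9 under red light. It was among the brightest of the 37 in red light, and the lowest red light signal exceeded the highest dark signal by 1.14-fold. The change was 1.20 among the high-ratio arrays and 2.17 among the low-ratio arrays, with a mean of 1.68 (SE 0.25).

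AT3G25400 encodes a pyrophosphatase that acts on dCTP, a building block of DNA. Its signal was 294.3, 176.8 and 291.1 in darkness and 605.2, 302.0 and 294.4 under red light. Red light 3 and dark 1 were practically the same, and the mean change was 0.90 (SE 0.24). AT2G36290 belongs to the alpha/beta hydrolase superfamily. Its signal was 734.9, 1037.6 and 734.0 in darkness and 1456.6, 2305.2 and 1563.5 under red light, a mean change of 0.93 (SE 0.22). Its groups were separated on all arrays, by 1.404-fold at the nearest points.

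EXPA4 encodes an expansin, a protein that loosens cell walls during growth. Its signal was 72.0, 526.6 and 89.2 in darkness and 164.8, 1492.7 and 875.0 under red light. The change within the classes was nearly equal, 1.04 and 1.12, whereas the level differed between the classes far more than between the treatments. Red light 1 was below dark 2 by a wide margin.

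The remaining named genes have less well described roles. AT1G13670 had signals of 65.5, 45.0 and 95.8 in darkness and 281.7, 486.0 and 376.7 under red light. All 3 red light signals stood at least 2.94 times above every dark signal, the widest separation over all arrays among the 37. Its change was 1.83 among the high-ratio arrays and 3.25 among the low-ratio arrays, with a mean of 2.54 (SE 0.39), the largest among the 12 named genes.

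AT5G62440, also described as DOMINO1, a nuclear protein needed for nuclear and nucleolar function, had signals of 269.2, 448.1 and 417.9 in darkness and 645.4, 817.7 and 1163.2 under red light. Its mean change was 1.03 (SE 0.26), and the groups did not overlap. AT1G70420 had signals of 263.9, 141.4 and 214.4 in darkness and 552.5, 309.4 and 212.4 under red light. Red light 3 lay just below dark 3, so its groups overlapped, and its mean change was 1.04 (SE 0.28).

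Of the 10 largest mean changes, 7 belong to unnamed probe sets. Probe set 258139_at had the largest, 3.27 (SE 0.67), with signals of 10.3, 197.2 and 62.2 in darkness and 321.8, 1668.7 and 1237.0 under red light. Its dark signals among the high-ratio arrays were 6.04-fold apart, and MAS5 signals this low are noisy on a log scale. Its standard error was the largest among the 37. Probe set 263779_at followed with 2.59 (SE 0.43), from 23.0, 126.8 and 62.3 to 322.0, 547.4 and 540.1.

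Probe set 266745_at had signals of 49.3, 47.2 and 151.1 in darkness and 503.8, 244.8 and 207.7 under red light, a change of 2.40 (SE 0.44). Probe set 249769_at had signals of 113.5, 58.7 and 169.1 in darkness and 368.0, 490.0 and 356.3 under red light, a change of 2.12 (SE 0.37). In both, the groups stayed apart on all arrays, by 1.38-fold and 2.11-fold.

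Brighter probe sets with large changes were 263046_at, 253145_at and 267517_at. The signal of 263046_at was 469.0, 938.4 and 363.2 in darkness and 1591.0, 2942.5 and 2243.0 under red light, a change of 1.70 (SE 0.23). That of 253145_at was 302.1, 166.1 and 376.3 in darkness and 1399.9, 399.3 and 413.8 under red light, a change of 1.67 (SE 0.26). For 263046_at all red light signals lay above all dark signals by at least 1.70-fold, whereas for 253145_at red light 2 exceeded dark 3 by only 1.06-fold. The signal of 267517_at was 385.4, 745.0 and 441.1 in darkness and 1567.0, 2085.3 and 1285.2 under red light, a change of 1.53 (SE 0.26).

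Some unnamed probe sets with moderate changes were even across all 6 arrays. Probe set 253872_at had signals of 553.1, 612.7 and 529.1 in darkness and 1385.9, 1340.4 and 1259.9 under red light. Its mean change was 1.22 (SE 0.20), and neither group spread by more than the treatment separated them, with the lowest red light signal 2.06 times the highest dark signal. Probe set 265480_at was the brightest in the dark and equally even. Its signal was 3097.4, 3228.7 and 3222.8 in darkness and 5594.3, 5835.2 and 5108.9 under red light, a change of 0.79 (SE 0.18). Probe set 247323_at went from 204.4, 180.2 and 198.8 to 371.2, 440.1 and 364.3, a change of 1.02 (SE 0.26).

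Others were uneven. Probe set 260481_at had signals of 254.0, 164.2 and 910.7 in darkness and 1667.6, 397.2 and 291.0 under red light, so that dark 3 lay above red light 2 and red light 3. Probe set 250665_at had signals of 438.7, 426.7 and 302.3 in darkness and 1724.0, 753.3 and 692.7 under red light. Its change was 2.24 among the high-ratio arrays and 0.76 among the low-ratio arrays, the only raised probe set whose change was larger by over 1 among the high-ratio arrays. AT1G13670 and 249769_at were the only ones larger by over 1 among the low-ratio arrays. For 25 of the 37 the changes in the 2 classes were within 0.5 of each other. With 1 array against 2 in each class these differences were not tested.

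Over the 37, the median change of a red light array against the dark of its own class was 1.18 for red light 1, 1.25 for red light 2 and 1.02 for red light 3. Red light 1 was the brightest red light array for 16 probe sets, red light 2 for 15 and red light 3 for 6. The replicates within a class were apart by about as much as elsewhere on the array. Dark 1 and dark 3 differed by a median of 1.25-fold over the raised probe sets and of 1.24-fold over all tested, and red light 2 and red light 3 by 1.18-fold and 1.20-fold.

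The criteria did not compare arrays across the classes. Over all 6 arrays the groups did not overlap for 29 of the 37 raised probe sets, where 2.23% of all tested probe sets had all red light signals above all dark signals. Since the criteria used the same contrast, nothing is read from that count. The 8 with overlap were AT3G16800, AT1G74470, EXPA4, AT1G70420, 260481_at, 255250_at, 260867_at and 251596_at. For 14 of the 37 the lowest red light signal was at least 1.5 times the highest dark signal, among them AT1G13670 and AT2G16365 and 12 unnamed probe sets. Limma with array class in the fit, adjusted over all 13647 probe sets, called 4 of the 37 higher in red light, namely AT1G13670, AT3G02910, 263046_at and 253145_at, where 0.0806% of all tested probe sets were called higher. Nothing is read from these 4 calls either, for the same reason. All 37 had passed the filter on low signals, 4 of them (258139_at, 263779_at, AT1G13670 and 266745_at) with a mean dark signal below its level of 88.4. With group alone limma called 0 of the 37, and 27 had an unadjusted p under 0.05. Over all tested probe sets that fit called 0, with 1.89% at an unadjusted p under 0.05. In the fit with class, the count without 1 array was 0 of the 37 without red light 2 (37 at an unadjusted p under 0.05), beside 8 calls of 13647 in either direction. It was 2 beside 9 without red light 3, 3 beside 14 without dark 1 and 4 beside 71 without red light 1. It was 11 beside 28 without dark 3, and 11 beside 272 without dark 2.

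The high-ratio and low-ratio classes share no array, and each gives its own estimate of the red light change. At 1.5-fold and with the red light floor, 1061 probe sets were higher in red light among the high-ratio arrays and 329 among the low-ratio arrays. The 47 that were higher in both are 4.43% of the former and 14.3% of the latter, where 1.45% of all probe sets were higher among the low-ratio arrays and 4.66% among the high-ratio arrays. The last 2 shares are over all 22746 probe sets, including those too dim to meet the floor in either class. They are therefore not a like base for the first 2, and no agreement between the classes is read from them. Higher among the high-ratio arrays but lower among the low-ratio arrays, at the same fold and with the floor on the dark signal, were 95 probe sets. Lower in the former but higher in the latter were 36. With the criteria turned round, 79 probe sets were lower in red light in both classes. Across the 13647 tested probe sets the changes in the 2 classes had a Pearson correlation of -0.044 and a Spearman correlation of -0.042. Probe sets are not independent replicates, and the correlation is a description. The plot of changes within each class shows the raised probe sets at the upper right of a cloud without slope.

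**Figure D2:**
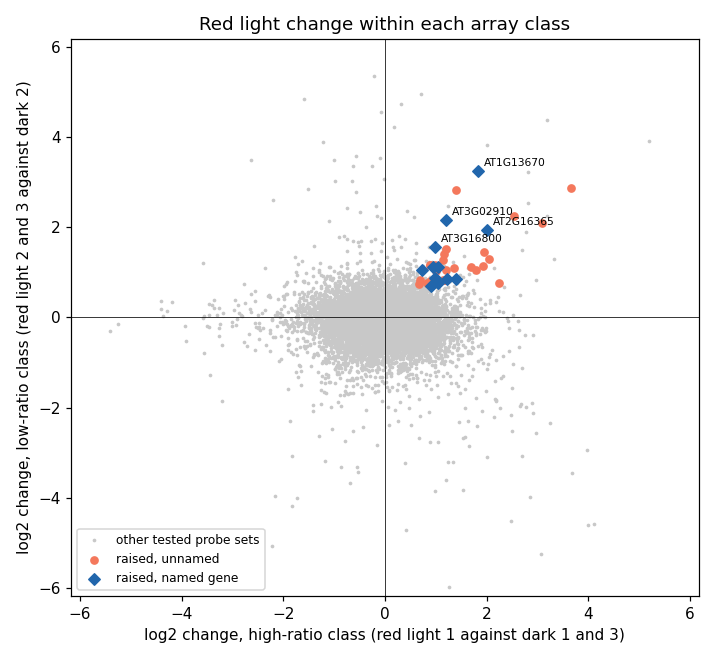
Log2 change (red light minus dark) of each tested probe set in the high-ratio class (x axis, red light 1 against dark 1 and dark 3) and in the low-ratio class (y axis, red light 2 and red light 3 against dark 2), with 1 point per probe set. The 37 raised probe sets lie above 0 on both axes by construction, the lowest value being 0.67, and the whole cloud has a correlation of -0.044.

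What the criteria did not use is the level of a transcript in one class against the other. They do bear on the spread left over in the fit, against which a class difference is tested. The share called is therefore not independent of the criteria. With group in the fit, limma called 19 of the 37 raised probe sets (51.4%) different between the array classes, where 36.8% of all tested probe sets were called and 39.1% of those with all red light signals at 150 or more. Of the 19, 10 were higher among the high-ratio arrays and 9 among the low-ratio arrays. The shares over all tested probe sets were 14.9% and 21.9%. The median absolute class difference was 0.60 over the 37 and 0.58 over all tested. Without red light 1 the count was 7 of 37, where 17.6% of all tested probe sets were called.

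Among the named genes, 8 of 12 (66.7%) were called different by class, where 36.8% of all tested probe sets were called. Higher among the low-ratio arrays were EXPA4, by 2.76 on the log2 scale (SE 0.29, 6.75-fold, limma adjusted p = 0.000127), AT3G16800 by 3.33-fold (limma adjusted p = 0.000387), AT3G02910 by 2.82-fold (limma adjusted p = 0.00111) and AT3G16350 by 1.73-fold (limma adjusted p = 0.0288). Higher among the high-ratio arrays were AT1G74470 by 2.34-fold (limma adjusted p = 0.00495), AT1G70420 by 1.90-fold (limma adjusted p = 0.0246), AT3G25400 by 1.83-fold (limma adjusted p = 0.0165) and AT2G28510 by 1.51-fold (limma adjusted p = 0.0411). The calls of EXPA4, AT3G16800 and AT3G02910 held in every alternative that tested them. Without red light 1 the other 5 were lost. AT2G28510 was also lost on leaving out any other array, AT3G16350 and AT3G25400 without red light 2 or red light 3, and AT1G70420 without red light 3 or dark 1. The other 4 named genes did not pass, with a class difference of 0.11 (SE 0.39) for AT1G13670, -0.21 (SE 0.41) for AT2G16365, -0.51 (SE 0.26) for AT5G62440 and -0.44 (SE 0.22) for AT2G36290. For 5 of the 37 probe sets, EXPA4, AT3G16800 and AT1G74470 among them, the class difference was larger than the mean red light change.

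Of the unnamed probe sets, 11 of 25 (44.0%) were called different by class, beside the same 36.8% of all tested. The largest differences were those of 258139_at, 5.90-fold higher among the low-ratio arrays (limma adjusted p = 0.0229), and of 260481_at, 3.79-fold higher among the high-ratio arrays (limma adjusted p = 0.0163). The 8 probe sets whose groups overlapped were all among the 19 called by class. Given the separation that the criteria demand within each class, groups could overlap only through a class difference, so this follows from how the probe sets were chosen. Of the 14 separated by at least 1.5-fold on all arrays, 3 were called by class, namely 258139_at, 263779_at and 263046_at. A separation across the classes itself favours small class differences, so nothing is read from that count either.

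**Figure D3:**
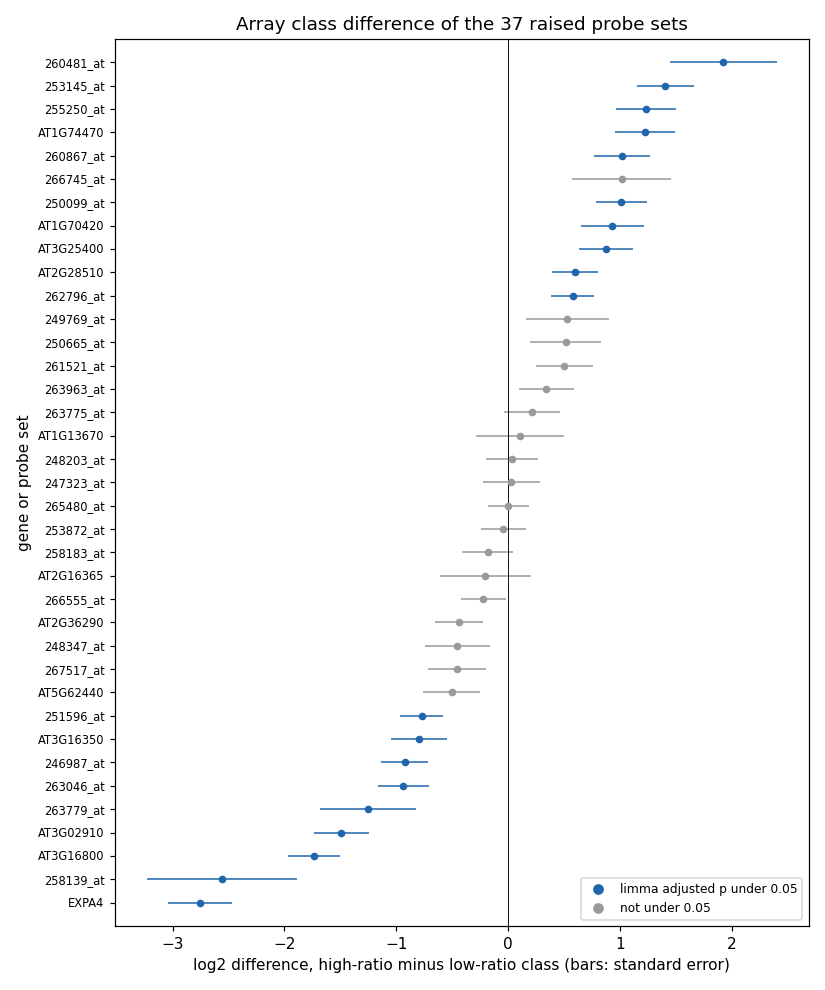
Log2 difference in signal between the array classes (high-ratio minus low-ratio, from the limma fit with group, bars show the standard error) for the 37 raised probe sets. The 19 in blue have a limma adjusted p under 0.05, from 1.92 for 260481_at at the top to -2.76 for EXPA4 at the bottom.

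At the edge of the criteria, the 3 raised probe sets with the smallest ratio were AT1G70420 (1.502), AT2G36290 (1.51) and 251596_at (1.52). Just outside were AT2G19385 (1.49), AT5G40020 (1.47) and 260037_at (1.47). The mean changes were 1.04, 0.93 and 0.76 inside, and 0.73, 0.76 and 1.90 outside. Outside the criteria, 67 probe sets met the floor and 3 of the 4 ratios, AT2G19385, AT5G40020 and 260037_at among them. The failing ratio was red light 1 over dark 1 for 10, red light 1 over dark 3 for 19, red light 2 over dark 2 for 22 and red light 3 over dark 2 for 16.

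None of the 12 named genes belongs to the 14 lists of light, clock, flavonoid, plastid, stress, hormone and tissue genes that were drawn up, 224 genes in all. A named probe set exists for 33 of these, and for 23 it was bright enough for the test. Limma with array class called 0 of the 23, and 6 had an unadjusted p under 0.05, 2 of them higher and 4 lower in red light. Over all tested probe sets, 6.88% had an unadjusted p under 0.05 in that fit. The 4 lower were the root hair genes XTH26, at -0.81 (SE 0.24), and EXPA18, at -0.999 (SE 0.35), the stress regulator STZ, at -0.97 (SE 0.35), and the auxin-conjugating enzyme gene WES1, at -0.46 (SE 0.20). The 2 higher were GI and UGT78D2, both of which met the criteria and were set aside. Their p-values rest on the same contrast as the criteria, so nothing is read from them. The signal of GI was 895.7, 1056.1 and 947.0 in darkness and 1510.7, 2003.5 and 1688.0 under red light, and that of UGT78D2 was 115.9, 89.6 and 126.8 in darkness and 268.7, 261.8 and 250.2 under red light.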

How the data were processed

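The deposited values are linear intensities, 1 for each probe set on each array. MAS5 is the tool named in the submitters' processing notes, with its version and detection calls not given in the sources used here. The mean after trimming 2% at each end was 500.04 to 500.06 on every array, so arrays were scaled by 1 factor each.

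The members and lists were chosen with earlier results of these data known. Signals were taken as log2 without a pseudocount. Probe sets with mean log2 signals over the 40th percentile (88.4 as a signal) entered a fit in limma 3.58.1 (trend and robust eBayes, statmod 1.5.0, R 4.3.3) with array class and group as terms. Adjustment followed Benjamini and Hochberg over 13647 probe sets, with a threshold of 0.05. The fit was tested on 3 simulations of the red light comparison with 200 of 13647 probe sets changed. For log2 changes of 1, 2 (up or down) and 3 it recovered 16.7%, 63.7% and 92.0%. False calls averaged 2.33. The simulated noise was normal and independent between probe sets, and each change was equal in both classes. Real arrays may depart from both, so these figures may be too favourable. Array class came from the GAPDH 3'/5' ratio, split at 5. P-values of this fit measure the spread left after array class and group are taken out of 6 arrays, which limits the precision. They leave out the spread between the classes within a group. The fit with group alone counts that spread, and a fit with a replicate block counts it in part. Named genes are all 12 members with 1 annotated gene, and unnamed ones are among the largest changes or chosen after their values were seen. Gene names came from the platform annotation, updated through a RefSeq table. Replicate numbers were not taken as pairs in the main fit, and a replicate block was run as an alternative. Deviations of same-numbered arrays from their group means correlated at 0.58, 0.64 and -0.32 for replicates 1, 2 and 3. These deviations include array class, which is shared by both arrays of replicates 1 and 2 but differs in replicate 3. The correlations therefore cannot tell whether the replicates were paired.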

Additional observations from a re-analysis of the deposited data

How the results depend on the processing

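The median change of the 37 stayed within 1 SD (0.12) of 1.12 under every alternative that gave one, from 1.096 with the pseudocount of 16 to 1.23 with quantile scaling, and 1.15 with group alone or a replicate block in place of array class. Single genes moved both ways in those 2 fits, 7 of the 12 named ones by more than their standard error, such as EXPA4 from 1.08 to 2.00, AT3G16800 from 1.27 to 1.85 and AT1G74470 from 1.12 to 0.72. The number called by red light was 0 in limma with group alone, with the replicate block and with plain eBayes (27, 31 and 37 at an unadjusted p under 0.05, beside 1.89%, 4.21% and 6.59% of all tested), where 0, 0 and 5 of all tested were called. It was 7 of 21 calls with the pseudocount, and leaving out 1 array gave 0 to 11. The number called by class was 16 to 19 under the scaling, filter, pseudocount and variance alternatives, where 21.2% (no filter) to 45.9% (60th percentile) of all tested were called. It was 7 to 17 leaving out 1 array, beside 17.6% (without red light 1, with 7) to 38.9% (without dark 3, with 17) of all tested. The class call of AT2G28510 was also lost with plain eBayes and without a filter, and that of AT3G16350 with quantile scaling. With group alone or a replicate block, part of a class difference enters the red light change. This follows from the design, as the dark group has 2 high-ratio arrays and the red light group 1. The cause of the other shifts was not tested. The criteria gave 10 probe sets at a fold of 2 and 351 without a signal floor, against 29 at a floor of 300 and 44 after quantile scaling, which kept 36 of the 37. Leaving out 1 array, chosen after seeing the data, gave 47 to 552, with fewer ratios to meet, namely 56 (dark 3), 68 (red light 2), 68 (red light 3), 287 (red light 1) and 552 (dark 2). The small class differences of AT2G16365 and AT1G13670 changed sign, to 0.14 without dark 1 for the former (range over left-out arrays of -0.54 to 0.14), and to -0.60 without dark 2 and -0.11 without dark 3 for the latter (range of -0.60 to 0.82). No promoter sequence was used here, so the planned share of promoters with a G-box was not run. A dark signal under 100, where log values are noisy, was found in 7 of the 37.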

Other observations

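The floor of 150 set aside 314 probe sets that met all 4 ratios, 196 of them with 1 named gene. The largest mean changes among these were 4.67 for AT5G22990 and 4.46 for AT3G25850. The signal of AT5G22990 was 1.5, 0.7 and 3.4 in darkness and 45.4, 18.3 and 27.7 under red light, and that of AT3G25850 was 1.5, 1.1 and 3.5 in darkness and 50.4, 17.6 and 33.4 under red light. Both lay far below the signal of 88.4 at which probe sets were tested, so these ratios rest on values near the bottom of the scale.

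Among named genes that met the floor and 3 of the 4 ratios, SQN, a cyclophilin of the HSP90 chaperone system, had signals of 53.5, 106.8 and 133.8 in darkness and 158.3, 236.8 and 230.6 under red light. Its mean change was 1.02 (SE 0.41), and its groups did not overlap. AT5G15950, which encodes an S-adenosylmethionine decarboxylase of polyamine synthesis, had signals of 220.9, 395.0 and 343.4 in darkness and 461.9, 981.7 and 781.8 under red light. Its mean change was 0.95 (SE 0.26), and it missed the criteria through red light 1 over dark 3, at 1.35.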
